A study of Oryctolagus cuniculus with 30 samples.

Results

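Keratin genes were followed in New Zealand white rabbits, in mucosa dissected from vocal folds after injury and injection. They were chosen by name alone, as every row of the deposited count tables whose symbol is KRT followed by a number and at most 1 letter, which gave 28 of 31346 rows. Another 14615 rows carry a LOC number in place of a symbol, so the 28 are the keratins with a symbol in these tables and not the whole family. Rabbits had been assigned at random to 5 groups of 3 animals for sequencing, and the left and right folds of each animal were sequenced separately, which gave 30 libraries from 15 animals. The control animals had no injury and no injection, and no collection time is listed for them. In the other 4 groups the superficial mucosa was stripped from both folds. The injury only group then received no injection. The Col1 group received 20 µL of collagen type I in both folds 7 days after the injury, and the groups labelled VFLP (man) and VFLP (au) received the same volume on the same day of the hydrogel of that name, which the title of the series describes as derived from vocal fold lamina propria. Larynges were collected 28 days after treatment, and for the animals that had no injection the starting point of those days was not established here. What "man" and "au" stand for is not spelled out in the labels.

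Keratins are the intermediate filament proteins of epithelial cells. A type I keratin pairs with a type II keratin to build a filament, and the pair that a cell makes changes with its layer and its state. KRT5, with KRT14 or KRT15, marks the basal cells of stratified epithelium. KRT4 with KRT13 marks the cells above them in epithelia that stay moist and do not cornify, such as that of the vibrating edge of the vocal fold. KRT8 and KRT18, with KRT7 and KRT19, mark simple, glandular and ciliated epithelium, which lines the larynx above and below that edge, while KRT16 and KRT17 are known for their induction in wounded skin.

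Libraries held 14.2 to 31.9 M reads assigned to genes (median 22.7 M). The replicates are separate animals, with 1 exception: where batch is a term in the fit, the injury only animal with a fold in each batch enters as 2 units. Its fold in batch D then serves only to set the batch term and adds no replicate. All 6 control libraries and 5 of the 6 injury only libraries belong to the batch labelled C, whereas 1 injury only library and all 18 libraries with an injected material belong to batch D. A pair of libraries stood apart in keratins. In the right fold of control animal 2, keratins took 0.122% of gene reads and skeletal muscle markers took 6.02%, the lowest and the highest share among control folds. In the left fold of injury only animal 3, secretory and gland markers took 18.7% of gene reads, and KRT8 took 8.35% of keratin reads.

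KRT4 and KRT13, the suprabasal pair of moist epithelia, made up most of the keratin reads. Over the 30 libraries, 41.0% of keratin reads fell on KRT4 and 39.7% on KRT13, and the suprabasal group of 5 (KRT4, KRT13, KRT78, KRT80 and KRT24) held 83.3%. The basal keratins KRT5 and KRT15 held 5.71% and 3.91%. The 5 keratins of simple, glandular and ciliated epithelium together held 6.70%, led by KRT7 with 2.51%. The wound-associated KRT17 and KRT16 held 0.188% and 0.0109%. Keratins of cornified or corneal epithelium (KRT10, KRT3 and KRT2) held 0.0992%, and those of the hair shaft 0.0596%, of which KRT82 held 0.0472%. These are shares of reads, which also depend on transcript length, so they do not rank the genes by number of molecules.

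By layer, the suprabasal keratins held most of the keratin reads in all 15 animals, folds summed, while the smaller layers varied more in proportion. The wound-associated keratins ran from 0.0567% to 0.537% of keratin reads, and those of the hair shaft from 0.0242% to 0.153%. The suprabasal share of keratin reads ran from 79.2% in VFLP (man) animal 3 to 87.0% in VFLP (man) animal 1, so that the whole range lay within 1 group. The basal share ran from 6.60% to 12.6%, again with both ends in the VFLP (man) group. The share of the simple and glandular keratins was 5.28% to 7.05% in control animals and 6.39% to 9.42% in injury only animals, and these ranges overlapped. Single folds went further. The left fold of injury only animal 3 had 64.7% suprabasal and 20.3% simple and glandular keratin reads. On the log2 scale, the ratio of KRT4 plus KRT13 reads to KRT5 plus KRT15 reads was 2.97 ± 0.13 (SD, n = 3) in control animals and 3.04 ± 0.24 in injury only animals. With an injected material the same ratio was 3.20 ± 0.14 (Col1), 3.00 ± 0.58 (VFLP (man)) and 3.09 ± 0.05 (VFLP (au)).

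**Figure D1:**
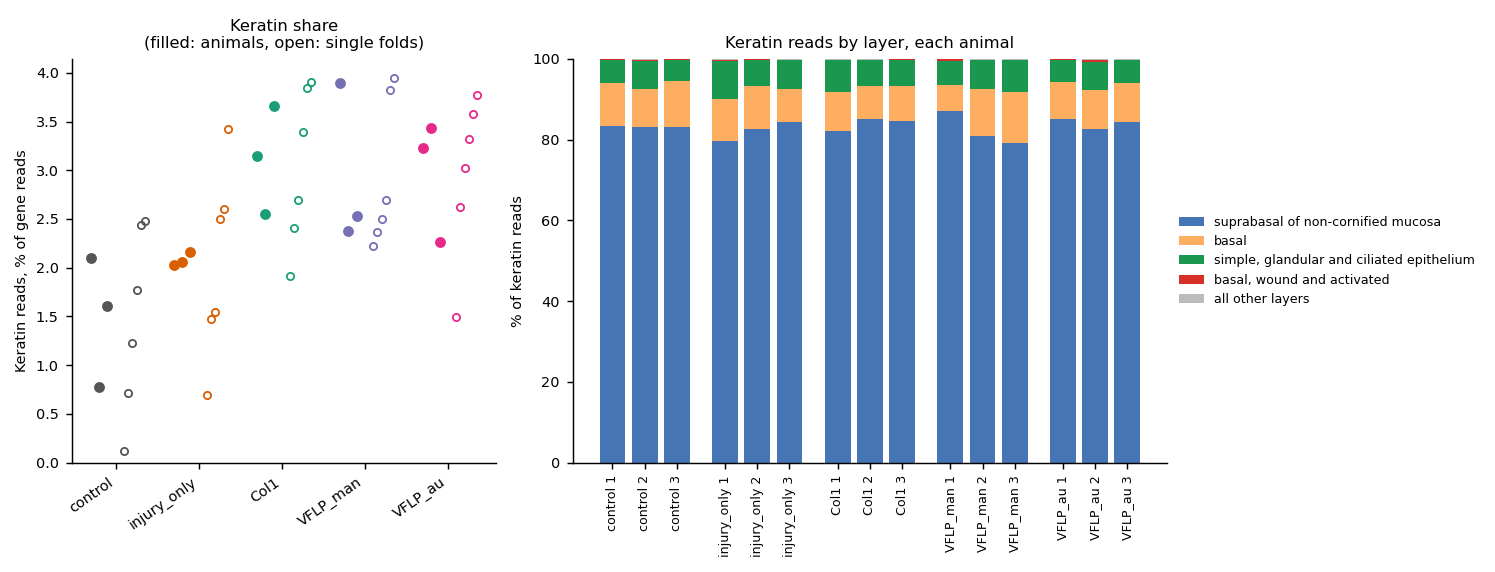
Left, keratin reads as a percentage of gene reads, with filled points for the 3 animals of each group and open points for their 6 single folds; right, the division of each animal's keratin reads among layers, as stacked bars that sum to all keratin reads. The suprabasal keratins fill 79.2% to 87.0% of every bar, and the lowest open point is the right fold of control animal 2 at 0.122%.

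The amount of keratin varied more between animals than the shares of the suprabasal, basal and simple layers. Keratins took 2.10%, 0.776% and 1.61% of gene reads in the control animals and 2.03%, 2.06% and 2.16% in the injury only animals. With Col1 they took 3.14%, 2.55% and 3.66%, with VFLP (man) 3.89%, 2.37% and 2.53%, and with VFLP (au) 3.23%, 3.43% and 2.26%. With folds summed, each animal with an injected material was thus above each control and each injury only animal, while the control and injury only ranges overlapped. Single folds overlapped between all groups. They ran from 0.122% to 2.48% in control and from 0.692% to 3.43% in injury only. With Col1 they ran from 1.91% to 3.90%, with VFLP (man) from 2.22% to 3.95% and with VFLP (au) from 1.49% to 3.77%. The groups with a material and those without differ in batch but for 1 library, and batch and injection cannot be told apart here. The sums are given as a description, with no test. In bulk tissue, fewer cells of a type and less RNA per cell cannot be told apart, and this holds for every keratin below.

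Of the 28 keratins, 21 had enough reads to be tested. The 7 others had between 1 read (KRT39) and 29 reads (KRT26) over all 30 libraries. They were KRT84, KRT35, KRT40 and KRT39 of the hair shaft, KRT26 and KRT79 of the hair follicle and sebaceous duct, and KRT24, and their total reads were too few for any statement about groups. No keratin of the 28 was without a read. KRT14, the usual type I partner of KRT5 in basal cells, and KRT6A, the partner of KRT16 and KRT17, have no row under their symbols, so those pairs were not analysed here. Levels below are in CPM, the counts relative to library size with the TMM factors of edgeR.

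The comparison of injury only with control asks what remained of the injury in folds that received nothing. KRT8 and KRT18, the filament pair of simple and glandular epithelium, and KRT82, a type II keratin known from the hair cuticle, were higher after injury. The basal and suprabasal keratins that make up most of the reads were not among the keratins that passed. So 3 of the 21 tested keratins rose and 0 fell, at an adjusted p under 0.05 in the edgeR quasi-likelihood test over all genes, against a background in which 22.1% of 17815 genes passed, 8.33% rising and 13.7% falling. The median log2 fold change of the 21 was 0.10, that of all genes tested 0.02. The scaling sets that background: with library totals and no TMM, 3785 genes rose and 1165 fell, against 1484 and 2449 with TMM, the median of all genes was 0.43, and 4 keratins rose and 0 fell. In 6 keratins every injury only animal was above every control animal, and 0 were below, where 20.5% of all genes were above and 21.9% below in the same way.

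KRT8 stood at 215, 231 and 312 CPM in the control animals and at 608, 367 and 469 CPM in the injury only animals. All injury only animals were above all control animals. The fitted difference was 1.91-fold (log2 0.94, SE 0.19; edgeR adjusted p = 0.0057). KRT18, its type I partner, stood at 28.7, 14.0 and 21.4 CPM in control and at 87.7, 63.5 and 82.9 CPM in injury only animals, again with no overlap. It rose 3.67-fold (log2 1.87, SE 0.56; edgeR adjusted p = 0.032). Its single folds did overlap, as control folds ran from 6.09 to 46.2 CPM. Injury only animal 2 had 25.0 CPM in the left and 106 CPM in the right fold, and animal 3 had 185 and 6.95 CPM. KRT82 was at 4.63, 3.75 and 5.14 CPM in control animals and at 22.3, 8.89 and 7.49 CPM in injury only animals, where animal 1 was far above the other pair. It rose 3.12-fold (log2 1.64, SE 0.46; edgeR adjusted p = 0.026).

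In this fit the folds of injury only animal 1 count as separate units, whereas its CPM above sums both folds. Its right fold is the only injury only library in batch D, and it alone sets the batch term. The fitted differences therefore rest on its left fold and the other injury only animals. With 15 animals and no batch term, the same 3 keratins passed. The calls otherwise differed in how they held up. KRT8 did not pass when only left folds were fitted, nor when the muscle level entered as a covariate, with an adjusted p of 5.3e-05 to 0.17 over all alternatives. It passed the test on leaving out any of the 6 animals in turn, and without either of the libraries that stood apart, with a log2 fold change of 0.76 without the right fold of control animal 2 and 0.84 without the left fold of injury only animal 3. Without that left fold, KRT18 was at log2 1.31 (edgeR adjusted p = 0.26) and KRT82 at log2 1.52 (adjusted p = 0.077). Over all alternatives the adjusted p ran from 0.0045 to 0.32 for KRT18 and from 0.0035 to 0.27 for KRT82. KRT18 also lost its call without control animal 2 or 3 or injury only animal 1 or 3, and KRT82 without control animal 1, 2 or 3 or injury only animal 1.

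KRT19, the smallest type I keratin and another member of the simple group, was at 312, 208 and 255 CPM in control animals and at 430, 351 and 427 CPM in injury only animals. KRT23, a type I keratin of glandular epithelium, was at 42.5, 75.2 and 117.5 CPM in control and 144.6, 117.6 and 122.7 CPM in injury only animals. In both genes the groups did not overlap, in KRT23 only just, and neither passed the test. KRT7 of the same layer overlapped between the groups, at 665, 339 and 361 CPM in control and 471, 395 and 431 CPM in injury only animals.

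Markers of other cell types also differed between control and injury only animals, and their counts stand against 8.33% of all genes risen and 13.7% fallen. Secretory and gland markers (12 of 15 in the tables) took 0.0527% to 1.27% of gene reads in control animals and 4.24% to 8.72% in injury only animals, with 4 of 12 risen. In control animals BPIFB2 of that list was at 0. Ciliated cell markers (15 of 16 in the tables, none at 0) took 0.000666% to 0.0147% in control and 0.0306% to 0.146% in injury only animals, with 2 of 15 risen. Skeletal muscle markers (13 of 18, none at 0) took 3.29% to 5.03% in control and 0.655% to 1.505% in injury only animals, with 7 of 13 fallen. Fibroblast markers were also lower, at 0.268% to 0.280% in control and 0.123% to 0.202% in injury only animals. Leukocyte markers were higher, at 0.00594% to 0.0107% and 0.0248% to 0.0301%, as were cartilage markers, at 0.00190% to 0.00248% and 0.00298% to 0.00387%. Endothelial markers overlapped between the groups. Their part in the keratin differences was not tested, apart from a fit with the muscle level as a covariate, in which edgeR called 0 keratins and 0 genes in all, with 6 keratins at an unadjusted p under 0.05.

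The 2 most abundant keratins stayed within the same range. KRT4 was at 9683, 5359 and 9635 CPM in control animals and at 7480, 8858 and 9432 CPM in injury only animals. KRT13 was at 8604, 4590 and 6857 CPM in control and at 6992, 7364 and 7944 CPM in injury only animals. For both, all 3 injury only animals lay inside the control range. The lower end of that range is control animal 2, whose right fold stood apart, with 878 CPM of KRT4 where the left had 7798 CPM. The other control animals were above all 3 injury only animals in KRT4, but not in KRT13. KRT78, a type II keratin of moist stratified epithelium, was at 385, 210 and 194 CPM in control and 172, 403 and 511 CPM in injury only animals, which overlapped. KRT80, a type II keratin of late differentiating cells, was at 153, 72.7 and 123 CPM in control and 72.4, 88.8 and 94.1 CPM in injury only animals, and these also overlapped.

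In the basal layer, KRT5 was at 1516, 677 and 1635 CPM in control animals and at 1281, 1309 and 982 CPM in injury only animals. KRT15, a type I keratin of basal cells, was at 867, 472 and 637 CPM in control and at 646, 866 and 763 CPM in injury only animals. Injury only values lay inside the control range for both genes, with control animal 2 at its lower end. The other control animals were above all injury only animals in KRT5, but not in KRT15. KRT17 was at 50.0, 23.3 and 28.01 CPM in control and 45.3, 25.2 and 12.7 CPM in injury only animals, and KRT16 at 1.72, 1.05 and 5.31 CPM against 1.36, 1.93 and 0.822 CPM. These wound-associated keratins overlapped between groups, and neither passed the test. KRT10, a type I keratin of cornifying cells, was at 19.0, 18.5 and 16.9 CPM in control and 21.2, 15.96 and 22.9 CPM in injury only animals, with overlap.

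**Figure D2:**
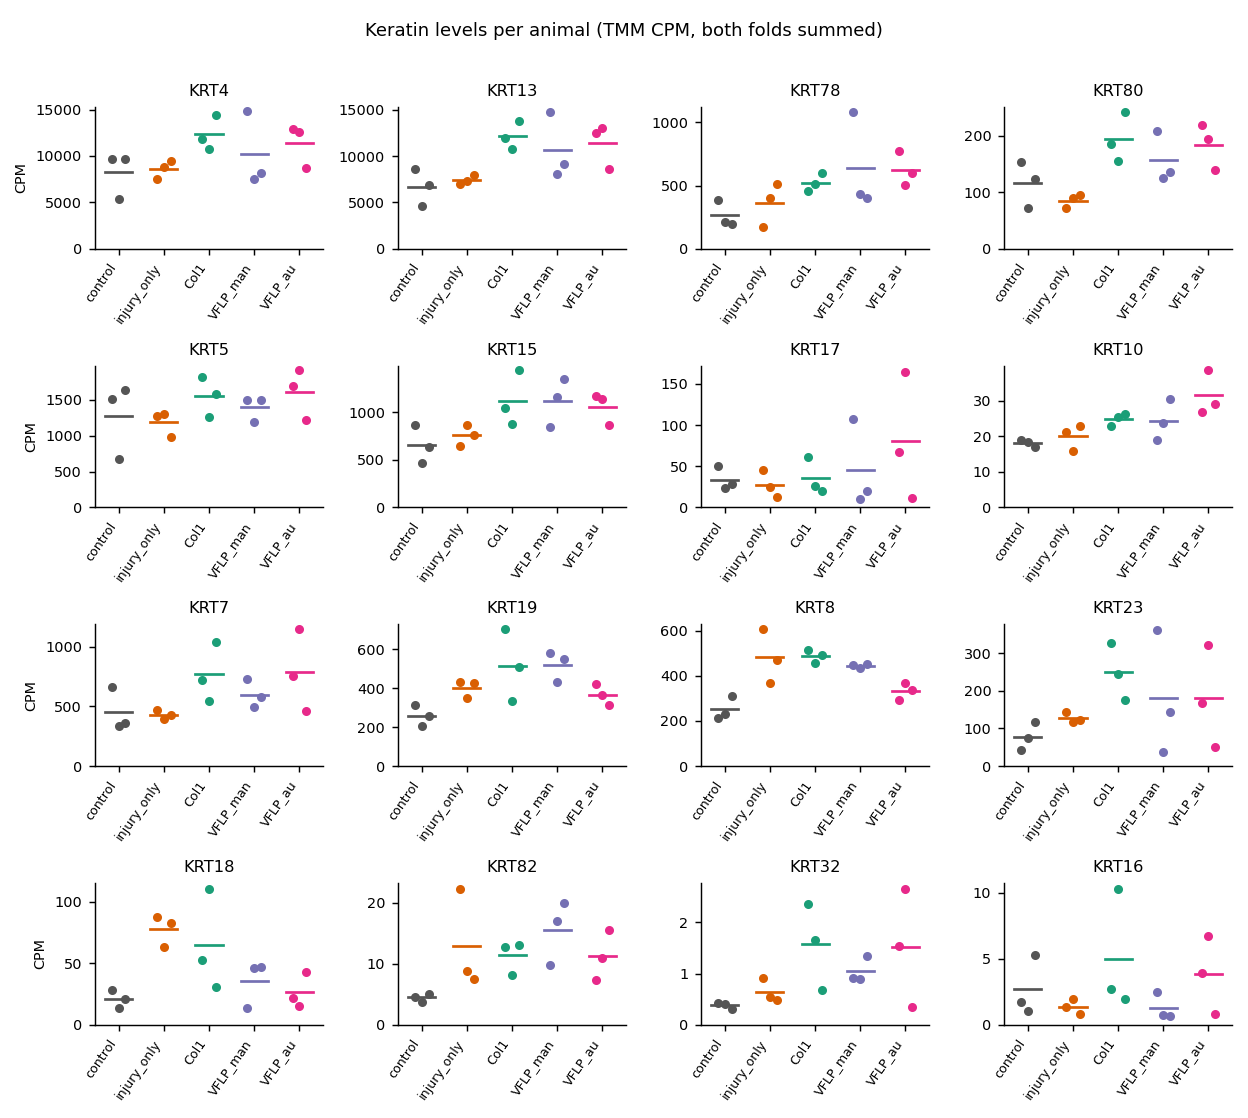
Level of 16 keratins in CPM (linear axes from 0), with a point for each of the 3 animals of a group, folds summed, and a line at the group mean. KRT8 and KRT18 have no overlap between control and injury only animals, whereas KRT4, KRT13 and KRT5 of those groups overlap.

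Each injected material was also set against control. The keratins that passed came from several layers: KRT8, KRT18 and KRT19 of simple epithelium, KRT15 of basal cells, KRT78 and KRT10 of differentiating cells, and KRT82 and KRT32 of the hair shaft. All were higher with the material. With Col1, 6 of the 21 tested keratins rose, where 32.1% of 17770 genes passed and 13.5% rose. With VFLP (man) 5 rose, where 37.3% of genes passed and 16.7% rose, and with VFLP (au) 3 rose, where 27.5% of genes passed and 10.8% rose. In edgeR 0 keratins fell, against 18.6%, 20.5% and 16.7% of all genes. The 3 comparisons share their control animals, so their counts are not independent of each other or of the comparison above.

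The median log2 fold change of the tested keratins was 0.87 with Col1, 0.68 with VFLP (man) and 0.66 with VFLP (au). That of all genes tested was 0.12, 0.13 and 0.11, so a fold change in these comparisons is to be read against a shift of that size. Scaled by library totals without TMM the median of all genes shifted by 0.51, 0.65 and 0.53, and 13, 10 and 10 keratins passed, all higher. Of all genes, 5179, 7295 and 5452 then rose and 2111, 2259 and 1783 fell, against 2396, 2972 and 1918 risen and 3306, 3651 and 2966 fallen with TMM. Every animal with the material was above every control animal in 12 keratins with Col1, 6 with VFLP (man) and 5 with VFLP (au), where 22.8%, 24.6% and 20.8% of all genes were. Below every control animal were 0 keratins in each comparison, where 23.0%, 24.1% and 21.9% of all genes were. No library of these groups shares a batch, so batch and treatment cannot be told apart in any of the 3 comparisons.

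KRT8 was at 512, 457 and 490 CPM with Col1, at 447, 436 and 450 CPM with VFLP (man) and at 294, 366 and 336 CPM with VFLP (au). The Col1 and VFLP (man) animals were above the highest control animal, and the VFLP (au) animals overlapped control. The gene was 1.92-fold higher with Col1 than in control (log2 0.94, SE 0.18; edgeR adjusted p = 0.0027) and 1.76-fold higher with VFLP (man) (log2 0.81, SE 0.18; adjusted p = 0.0048). KRT19 was at 703, 333 and 507 CPM with Col1 and at 579, 431 and 548 CPM with VFLP (man), above control in every animal. It was 1.99-fold higher with Col1 (log2 0.99, SE 0.25; edgeR adjusted p = 0.0094) and 2.01-fold higher with VFLP (man) (log2 1.01, SE 0.25; adjusted p = 0.0074). With VFLP (au) it was at 421, 364 and 316 CPM and did not pass. The KRT8 and KRT19 calls held on leaving out any animal of the groups compared, and without the right fold of control animal 2.

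KRT18 was at 52.8, 110 and 30.4 CPM with Col1, at 13.8, 46.6 and 47.2 CPM with VFLP (man) and at 21.5, 15.5 and 43.3 CPM with VFLP (au). With Col1 all animals were above control, by 3.01-fold in the fit (log2 1.59, SE 0.55; edgeR adjusted p = 0.044). With the hydrogels the ranges overlapped control. Secretory and gland markers took 0.995% to 6.59% of gene reads with Col1, with BPIFB2 at 0, and Col1 animal 2 was highest both in these markers and in KRT18. They took 0.155% to 2.18% with VFLP (man) and 0.177% to 3.92% with VFLP (au). Their part in the KRT18 values was not tested.

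KRT15 was at 1043, 881 and 1445 CPM with Col1 and at 851, 1167 and 1349 CPM with VFLP (man), each 1.70-fold higher than control (log2 0.77, SE 0.26; edgeR adjusted p = 0.042 and 0.038). The Col1 animals were all above control, whereas VFLP (man) animal 1 lay below control animal 1. KRT5, which is made in the same basal cells, was at 1827, 1261 and 1590 CPM with Col1, 1496, 1190 and 1498 CPM with VFLP (man) and 1690, 1918 and 1217 CPM with VFLP (au), all overlapping control.

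KRT78 was at 459, 510 and 602 CPM with Col1, at 1079, 435 and 399 CPM with VFLP (man) and at 775, 505 and 599 CPM with VFLP (au). Every animal with a material was above every control animal, and VFLP (man) animal 1 was far above the others of its group. The gene passed with VFLP (man) and not with Col1 or VFLP (au), which does not show that the materials differ. With VFLP (man) it was 2.43-fold higher than control (log2 1.28, SE 0.45; edgeR adjusted p = 0.041), and at log2 0.67 without VFLP (man) animal 1 (adjusted p = 0.23, within a range of 0.0099 to 0.93 over all alternatives). KRT10 was at 27.0, 38.8 and 29.0 CPM with VFLP (au), above control in every animal. It was 1.74-fold higher (log2 0.80, SE 0.20; edgeR adjusted p = 0.011). Without VFLP (au) animal 2 its log2 fold change was 0.63 (adjusted p = 0.051, within a range of 0.0025 to 0.59).

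The hair keratins were low throughout. KRT82 was at 12.8, 8.20 and 13.1 CPM with Col1, 9.77, 16.96 and 19.9 CPM with VFLP (man) and 7.34, 10.9 and 15.5 CPM with VFLP (au), above the control animals in all 9 cases. It was 2.52-fold (log2 1.33, SE 0.43; edgeR adjusted p = 0.032), 3.45-fold (log2 1.79, SE 0.43; adjusted p = 0.0070) and 2.50-fold (log2 1.32, SE 0.43; adjusted p = 0.038) higher than control. KRT32, a type I hair cuticle keratin, was at 0.434, 0.411 and 0.314 CPM in control, at 2.36, 1.66 and 0.688 CPM with Col1, at 0.916, 0.903 and 1.34 CPM with VFLP (man) and at 1.55, 2.65 and 0.342 CPM with VFLP (au), where animal 3 lay within the control range. All Col1 and VFLP (man) animals were above control, though the gene did not pass with VFLP (man). It was 4.04-fold higher than control with Col1 (log2 2.02, SE 0.64; edgeR adjusted p = 0.030) and 3.91-fold higher with VFLP (au) (log2 1.97, SE 0.64; adjusted p = 0.038), on 41 reads in all in control. KRT38, another type I hair keratin, passed in no comparison, and 40.4% of the reads at its locus fell on the opposite strand.

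Several of these calls lay near the threshold and were lost when any 1 of several animals was left out. Their direction held, as with KRT82 in Col1 against control, at log2 1.19 to 1.52. With Col1, KRT15 lost its call without control animal 2 or 3 or Col1 animal 1 or 3, KRT18 without control animal 2 or 3 or Col1 animal 1 or 2, KRT32 without any 1 control animal or Col1 animal 1 or 2, and KRT82 without any 1 control animal or Col1 animal 1 or 3. With VFLP (man), KRT15 lost it without control animal 2 or 3 or VFLP (man) animal 2 or 3, and KRT78 without control animal 2 or 3 or VFLP (man) animal 1. With VFLP (au), KRT32 lost it without any 1 control animal or VFLP (au) animal 1 or 2, KRT82 without any 1 control animal or VFLP (au) animal 2 or 3, and KRT10 without VFLP (au) animal 2. In left folds alone 0, 0 and 1 keratins passed, where 18, 2867 and 1706 of 16601 genes did. With the muscle level or the batch as a further term 0 keratins passed in each comparison. With the batch, 0, 29 and 0 of 17815 genes passed, and with the muscle level 0 in each. Without the right fold of control animal 2 alone, 3, 3 and 1 keratins passed with Col1, VFLP (man) and VFLP (au), namely KRT8, KRT19 and KRT32, KRT8, KRT19 and KRT82, and KRT10. Of 17772 genes, 5410, 6276 and 4472 passed in that fit.

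**Figure D3:**
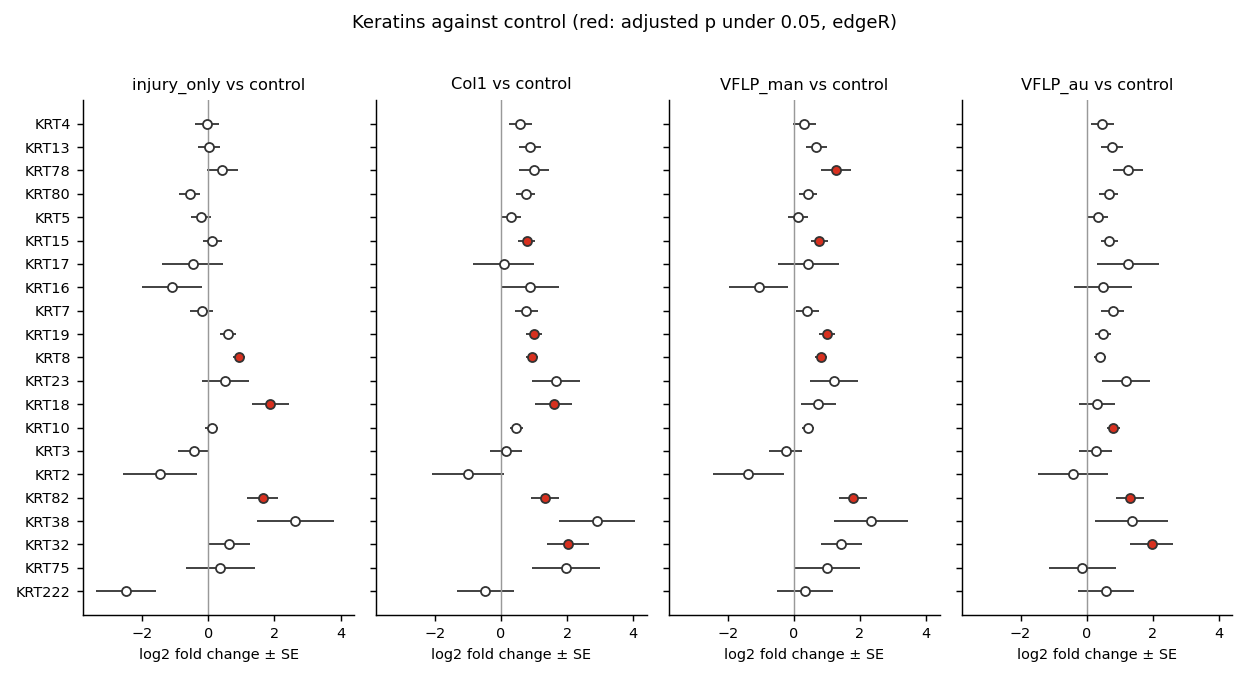
Log2 fold change against control (x axis, with bars of 1 SE) of the 21 tested keratins (rows, ordered by layer) in the 4 treated groups, filled red where the edgeR adjusted p was under 0.05. Red points number 3, 6, 5 and 3 from left to right and all lie right of the line at 0.

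The comparison of each material with injury only asks what an injection added. No keratin passed the test with any material. With Col1 and with VFLP (au) no gene of 17770 passed (0.0% in each), and with VFLP (man) 1.06% did, 0.0732% higher and 0.99% lower, so the zero for Col1 and VFLP (au) is shared with the whole transcriptome. At an unadjusted p under 0.05, 3, 2 and 6 of the 21 keratins were counted with Col1, VFLP (man) and VFLP (au), where 14.2%, 17.2% and 12.9% of all genes were. DESeq2 called 1, 0 and 1 keratins, KRT80 in both cases, and limma voom called 0. Of all genes DESeq2 called 380, 1249 and 201 of 17770, and limma voom 3, 11 and 3 of 16475. All but 1 library of the injury only group belong to another batch than the materials, and batch and injection can hardly be told apart.

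KRT80 was the keratin of smallest p with all 3 materials. It was at 72.4, 88.8 and 94.1 CPM in injury only animals, at 185, 156 and 243 CPM with Col1, at 208, 125 and 136 CPM with VFLP (man) and at 219, 194 and 139 CPM with VFLP (au). All 9 animals with a material were above all 3 without. The fitted differences were log2 1.19 (SE 0.29; edgeR adjusted p = 0.27), 0.88 (SE 0.29; adjusted p = 0.15) and 1.11 (SE 0.29; adjusted p = 0.35). Over the 5 groups KRT80 passed (edgeR adjusted p = 0.032), as did KRT8 (0.0079), KRT19 (0.038) and KRT10 (0.043), 4 of 21 keratins where 28.4% of all genes passed. That test includes the difference between batches.

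The share of KRT80 among keratin reads separated the injury only group from all others. It was 0.392%, 0.439% and 0.442% in the injury only animals, and between 0.584% and 0.704% in the 12 other animals, the control animals of the same batch included. In the injury only animal with a fold in each batch, the share was 0.370% in the fold of batch C and 0.405% in the fold of batch D. The control fold of lowest keratin content, the right fold of animal 2, was at 0.404%, inside the range of 0.344% to 0.459% of the 6 injury only folds. This share was noticed in the data and is given with no test.

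Among the other keratins, KRT13 was at 12019, 10759 and 13849 CPM with Col1, all above the injury only animals (log2 0.72, SE 0.32; edgeR adjusted p = 0.35). It was at 14834, 8117 and 9108 CPM with VFLP (man) and at 12469, 13081 and 8647 CPM with VFLP (au). KRT4 was at 11805, 10780 and 14424 CPM with Col1, above the injury only animals, but at 14838, 7547 and 8215 CPM with VFLP (man) and 12948, 12629 and 8670 CPM with VFLP (au), which overlapped them. KRT7 was at 724, 549 and 1038 CPM with Col1, above the injury only animals (log2 0.83, SE 0.35; adjusted p = 0.33).

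With VFLP (au), the smallest p after KRT80 belonged to KRT10 (log2 0.66, SE 0.20; edgeR adjusted p = 0.35) and to KRT8, which was lower than in every injury only animal, if only just (366.0 against 366.9 CPM for the nearest animals; log2 -0.54, SE 0.18; adjusted p = 0.35). With VFLP (man) it belonged to KRT222 (log2 2.09, SE 0.91; edgeR adjusted p = 0.26), a short keratin-like gene at 0.0236 to 0.252 CPM in injury only animals, and to KRT15 (log2 0.57, SE 0.26; adjusted p = 0.30). KRT18 was below every injury only animal with VFLP (man) and with VFLP (au). In all, 7 keratins with Col1, 5 with VFLP (man) and 6 with VFLP (au) were above in every animal, where 12.1%, 11.6% and 12.8% of all genes were, and 0, 1 and 2 were below, where 10.8%, 13.2% and 9.03% were. Over the tested keratins the median log2 fold change was 0.57, 0.37 and 0.62, and over all genes 0.00, 0.00 and 0.01.

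**Figure D4:**
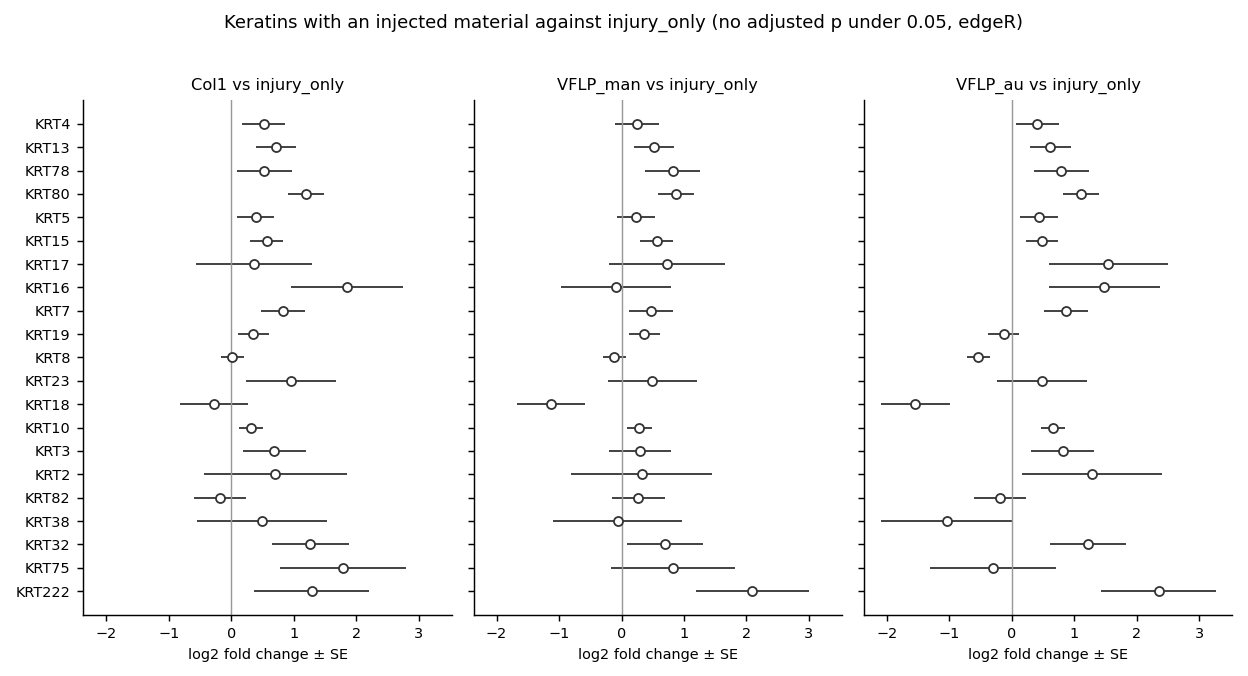
Log2 fold change against injury only (x axis, with bars of 1 SE) of the 21 tested keratins (rows, ordered by layer) for the 3 injected materials, all open because no edgeR adjusted p was under 0.05. KRT80 has a log2 fold change of 1.19, 0.88 and 1.11 from left to right.

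The ratio of the suprabasal pair differed along the same line as the batch. On the log2 scale, reads of KRT13 over reads of KRT4 stood at -0.17, -0.22 and -0.49 in control animals and at -0.10, -0.27 and -0.25 in injury only animals. With Col1 it was 0.03, 0.00 and -0.06, with VFLP (man) 0.00, 0.11 and 0.15, and with VFLP (au) -0.05, 0.05 and 0.00. All 9 animals with a material, whose libraries are all of batch D, lay above the 6 others. The ratio also differed by side: in each of these 9 animals the left fold was above the right, as in Col1 animal 1 at 0.23 and -0.03. Among the 6 others both orders occurred. Single folds overlapped from both sides: the left fold of injury only animal 3, in batch C, was at 0.08, and 5 right folds of batch D lay between -0.17 and -0.11, below the left fold of control animal 1 at -0.08. In the injury only animal with a fold in each batch, the ratio was -0.18 in the fold of batch C and -0.05 in that of batch D. Its folds also differ in side, so batch and fold cannot be told apart within it.

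The 3 materials were compared with each other within batch D. No keratin passed in any of the 3 comparisons, and of all genes 0.0% passed for VFLP (man) against Col1, 0.0% for VFLP (au) against Col1 and 0.0505% for VFLP (man) against VFLP (au). At an unadjusted p under 0.05, 0, 2 and 1 of the 21 keratins were counted, where 10.3%, 4.65% and 8.36% of all genes were. DESeq2 and limma voom called 0 keratins. Of all genes DESeq2 called 389, 35 and 387 of 17815, and limma voom 5, 11 and 29 of 16475. Every animal was above the other group in 0, 2 and 2 keratins, where 6.71%, 4.82% and 5.09% of all genes were, and below it in 1, 1 and 0, where 8.29%, 4.56% and 9.22% were. The values nearest to a difference were those of KRT8, which was lower with VFLP (au) than with Col1 in every animal (log2 -0.55, SE 0.19; edgeR adjusted p = 0.99) and lower than with VFLP (man) in every animal (VFLP (man) minus VFLP (au) log2 0.42, SE 0.19; adjusted p = 0.57). KRT18 was also lower with VFLP (au) than with Col1 in the fit (log2 -1.27, SE 0.55; adjusted p = 0.99), but these groups overlapped. For VFLP (man) against Col1 the smallest p was that of KRT16 (log2 -1.94, SE 0.90; adjusted p = 0.49). Both values rested on Col1 animal 2, which had 10.2 CPM of KRT16 where the others had 2.705 and 1.963. Without it the KRT16 difference was log2 -0.86 and the KRT18 difference log2 -0.64.

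Genes that work beside keratins were counted from 5 lists. Their counts are to be read against all genes, of which 8.33% rose after injury alone and 13.5%, 16.7% and 10.8% rose against control with Col1, VFLP (man) and VFLP (au), while 13.7%, 18.6%, 20.5% and 16.7% fell. Among 25 epithelial transcription regulators, 4 rose after injury alone, and 15, 15 and 16 rose with the materials, with 0 fallen. FOXA1, a regulator of glandular and airway epithelium, rose 2.71-fold after injury alone (log2 1.44, SE 0.25; edgeR adjusted p = 0.0034). GRHL2, which sustains epithelial junction genes, rose 2.38-fold (log2 1.25, SE 0.24; adjusted p = 0.0050), and SOX2 2.61-fold (log2 1.38, SE 0.31; adjusted p = 0.010). The list of 19 other epithelial genes, which shares GRHL2, had 6 risen after injury alone and 13, 12 and 10 with the materials. This list took 0.0871% to 0.295% of gene reads in control animals, 0.358% to 0.385% in injury only animals and 0.385% to 0.642% in animals with a material.

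Of 22 genes of desmosomes, plakins and hemidesmosomes, to which keratins attach, 1 rose and 1 fell after injury alone, fewer than the shares of all genes would give. PKP2, a plaque protein of the desmosome, rose 2.92-fold (log2 1.55, SE 0.28; edgeR adjusted p = 0.0036). PLEC, the plakin plectin, which muscle also makes, fell by 0.74 on the log2 scale (SE 0.19; edgeR adjusted p = 0.019). With Col1, VFLP (man) and VFLP (au), 3, 1 and 1 of these genes rose against control and 1 fell in each, PLEC in every case, again close to or below the shares of all genes. Among 18 tested genes of squamous differentiation 0 passed after injury alone, and 3, 3 and 2 rose with the materials, PSCA and SCEL among them each time, which is near the share of all genes. Of 11 other intermediate filament genes, SYNM, which makes a muscle filament protein, fell by 1.93 on the log2 scale after injury alone (SE 0.44; edgeR adjusted p = 0.010), and 4, 5 and 4 fell with the materials. Against injury only, none of the genes on these 5 lists passed with Col1 or VFLP (au), and with VFLP (man) SYNM alone did, downward. Muscle markers were lower in all treated groups, at 0.206% to 0.564% of gene reads with Col1, 0.0514% to 0.357% with VFLP (man) and 0.429% to 1.01% with VFLP (au). With the muscle level as a covariate edgeR called 0 genes of any kind in each of the 4 comparisons with control. There, 4311, 2560, 2185 and 2003 genes had an unadjusted p under 0.05. None of the calls against control on these lists held in that fit. The muscle level was higher in every control animal than in any other animal, so the fit can hardly tell muscle level and group apart. With batch as a term, 0, 29 and 0 genes passed against control with Col1, VFLP (man) and VFLP (au).

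Folds of the same animal often differed in keratins. Across the 21 tested keratins the median ratio of the higher to the lower fold ran from 1.16 (KRT10) to 3.50 (KRT2, which has 113 reads in all). Among keratins above 10 CPM on average, KRT17 had the largest median, 2.16, and KRT18 the largest single ratio, 26.6. That was injury only animal 3, with 185 CPM in the left fold and 6.95 CPM in the right, where secretory and gland markers took 18.7% and 0.108% of gene reads. The fold with more KRT18 was the fold with more secretory and gland reads in 13 of 15 animals, the most of any keratin, whose counts ran from 4 to 13 with a median of 7, a pattern chosen after its values were seen. KRT82 was higher in the left fold in 13 of 15 animals, the highest such count among the tested keratins, where the others ran from 5 to 11. It is given with no test. KRT17 and KRT16 each had libraries far above the rest of their group, up to 293 CPM of KRT17 in the right fold of VFLP (au) animal 2, where the left fold had 68.4 CPM.

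**Figure D5:**
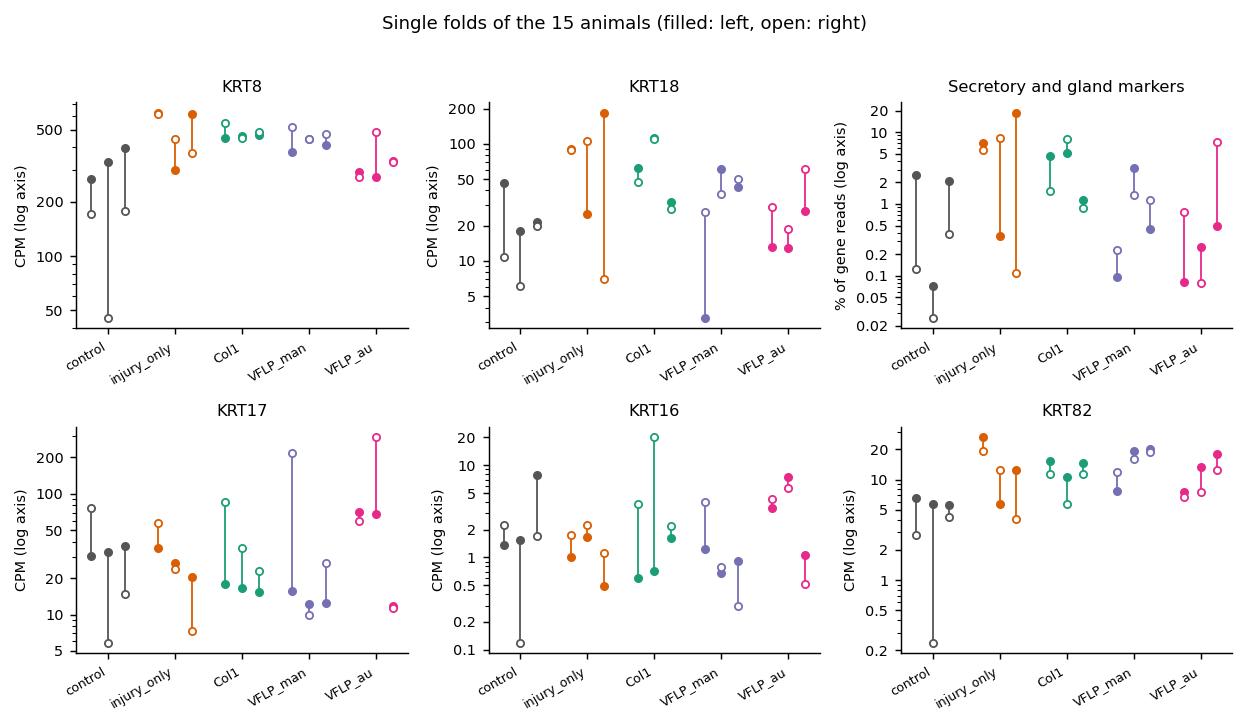
Level in the left (filled) and right (open) fold of each of the 15 animals, joined by a line, for KRT8, KRT18, KRT17, KRT16 and KRT82 (CPM, log axes) and for the summed secretory and gland markers (percent of gene reads, log axis). KRT18 of injury only animal 3 runs from 6.95 to 185 CPM between its folds.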

How the data were processed

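Paired reads were counted per gene with STAR 2.7.10b, per the submitters' processing notes, and the authors deposited raw counts without normalization; the genome build, the annotation and the strand setting are not stated in the labels or notes. The column for second-read strand was taken, without the 4 rows that hold no gene. Reads not assigned to a gene were 23.2% to 44.7% of all reads, and these include the multimapping reads, at 11.1% to 34.5% of all reads. Multimapping reads were 14.5% to 34.5% in control libraries and 11.1% to 19.9% in libraries with a material. Keratins are near-identical in places and have pseudogenes, so reads may be lost or shared between members. Folds of an animal were summed. edgeR 4.0.16 (quasi-likelihood, TMM, filterByExpr at a minimum count of 10; R 4.3.3) was fitted to all genes, with Benjamini-Hochberg adjustment over all genes tested and a threshold of 0.05. All 5 groups shared the estimate of spread. Injury only against control and the comparisons between materials used 16 units with batch as a term, the injury only animal with a fold in each batch being divided; the other comparisons used 15 animals without it. The SE is the absolute log2 fold change over the square root of F. On simulated counts for 17815 genes of injury only against control, 35% of 2-fold and 82% of 4-fold changes were recovered, with 4 false calls. The changed genes were drawn only from those of higher level, and no batch difference was simulated. The rates thus do not cover keratins of low level such as KRT16 and KRT32.

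The members, layers and lists were chosen with earlier results of these data known. Named are keratins past the threshold in any comparison, the 4 of highest level in each layer and the 3 of smallest p in each comparison, with fold changes only for the first and last kind, and up to 3 genes of each companion list. Of the 28 symbols, 23 were found in RefSeq. Alternatives included DESeq2 1.42.0 and limma 3.58.1 voom. Leaving out either library that stood apart, and scaling without TMM, were added after the data were seen.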

Additional observations from a re-analysis of the deposited data

Results flagged for a closer look

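In 9 of 90 groups of 6 libraries checked, the highest library of a group stood apart by Dixon's 95% value for the gap to the next library. For independent values with a normal spread, chance alone flags about 1 in 20 groups. The 6 libraries are folds of 3 animals, so that rate does not hold here and the 9 are not to be read against it. For KRT17 these were the right fold of Col1 animal 1 at 84.8 CPM (the others at 15.3 to 35.6), the right fold of VFLP (man) animal 1 at 217.4 CPM (others 9.99 to 26.7) and the right fold of VFLP (au) animal 2 at 293.5 CPM (others 11.3 to 70.2). For KRT16 they were the left fold of control animal 3 at 7.75 CPM (others 0.119 to 2.23), the right fold of Col1 animal 2 at 20.1 CPM (others 0.595 to 3.84) and the right fold of VFLP (man) animal 1 at 4.00 CPM (others 0.299 to 1.23). The right fold of VFLP (man) animal 1 stood apart in both wound-associated keratins. KRT7 reached 843.4 CPM in the left fold of VFLP (man) animal 1 (others 489 to 580). KRT8 reached 484.2 CPM in the right fold of VFLP (au) animal 2 (others 275 to 335), and KRT18 61.0 CPM in the right fold of VFLP (au) animal 3 (others 12.8 to 29.1).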

How the results depend on the processing

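Counts below are keratins past the threshold, for injury only, Col1, VFLP (man) and VFLP (au) against control and over the 5 groups, where the reported counts are 3, 6, 5, 3 and 4. DESeq2 gave 5, 10, 6, 6 and 9, and 1 each for Col1 and VFLP (au) against injury only. Of all genes it called 5488 of 17815 and then 6673, 7658, 5959 and 7826 of 17770. Of its 5 keratins for injury only against control, 4 were higher and 1 was lower, where 2244 genes were higher and 3244 lower. Limma voom on 30 libraries gave 1, 4, 4, 1 and 0, where 2994, 5945, 6914, 4934 and 5630 of 16475 genes passed. Left folds alone gave 0, 0, 0, 1 and 0, where 0, 18, 2867, 1706 and 1663 of 16601 genes passed. Right folds alone gave 2, 8, 6, 6 and 2, where 4348, 7762, 7537, 5710 and 5669 of 16576 genes passed. With the muscle level as a covariate all were 0, with KRT80 of VFLP (man) against injury only at log2 -0.15, KRT18 of VFLP (man) against Col1 at 0.25 and KRT19 of VFLP (man) against control at -0.17, each with the sign turned. With batch handled the other way they were 3, 0, 0, 0 and 1, the batch term resting on 1 library. Of all genes 4138 of 17770 and then 0, 29, 0 and 1535 of 17815 passed there. Library totals without TMM gave 4, 13, 10, 10 and 6, where 4950 of 17815 and then 7290, 9554, 7235 and 6607 of 17770 genes passed. The fit without the right fold of control animal 2 gave 3, 3, 3, 1 and 2, where 3623, 5410, 6276, 4472 and 4978 genes passed. Without the left fold of injury only animal 3 it gave 1 for injury only and 1 over the groups, where 2892 and 4167 genes passed. Leaving out each animal in turn gave 1 to 3, 2 to 8, 3 to 5, 0 to 5 and 1 to 5, and 0 for every comparison with injury only and between materials. Against control and over the groups, 1733 to 4286, 3658 to 6221, 4438 to 6762, 2528 to 5549 and 2924 to 5191 genes passed. Without control animal 3, 1 of the 2 keratins called for injury only against control was lower. The keratin share of gene reads of the injury only group was 1.62% in left and 2.47% in right folds (2.04% to 2.11% on leaving out an animal; control 1.19% to 1.85%, Col1 2.85% to 3.40%, VFLP (man) 2.45% to 3.21%, VFLP (au) 2.75% to 3.33%). Replicate numbers paired no samples (median correlation of same-numbered animals -0.05, of others 0.02), and the fit with the replicate block gave 3, 4, 3, 2 and 3. In that fit 3305 of 17815 and then 5293, 6190, 4465 and 4291 of 17770 genes passed. Of 659 alternative values of 35 fold changes, 532 kept their direction and side of the threshold, 122 lost their call, 2 gained one and 3 turned. The cause of these changes was not tested.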
